A study of Sus scrofa with 12 samples.

Results

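miR-122-5p, miR-192, miR-194a-5p and miR-215 are microRNAs (miRNAs, short RNAs that repress the messages they pair with) known from liver, gut and kidney epithelium, and they were followed here in vesicles released by stromal cells. They are 4 of the 252 mature pig miRNAs in the deposited table, where they were taken by name as ssc-miR-122-5p, ssc-miR-192, ssc-miR-194a-5p and ssc-miR-215. The series profiled extracellular vesicles, the membrane particles cells shed, pelleted by differential ultracentrifugation from the conditioned medium of wild-type bone marrow mesenchymal stromal cells (MSCs). The MSCs came from juvenile Yucatan minipigs and had been expanded on plates and frozen before use. Each of 4 donors was cultured in 3 ways and sequenced once per culture, for 12 libraries in all.

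Plate cultures were seeded at 5000 cells/cm2 on treated tissue culture plates in DMEM with 10% fetal bovine serum (FBS). Perfusion cultures grew on bioscaffolds with medium circulating at 4 mL/min in a bioreactor. Microcarrier cultures grew on beads in a spinner flask, for 2 hours without serum and then with 10% FBS. The labels give no serum content for the perfusion medium, so the medium and the culture method cannot be told apart in any comparison with perfusion. They do not say whether the serum was depleted of its own vesicles.

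miR-122 is the dominant miRNA of hepatocytes, where it regulates cholesterol and lipid metabolism, and its level in blood is a known marker of liver injury. miR-192, miR-194 and miR-215 are enriched in intestinal, hepatic and renal epithelium, and in human cells all of these are induced by the tumour suppressor p53. miR-192 and miR-215 share a seed, the bases that choose target messages, and differ by very few bases in human and mouse. Their genes lie in clusters with miR-194: in the RefSeq annotation of the Sscrofa11.1 assembly, MIR192 is the direct neighbour of MIR194A, and MIR215 that of MIR194B. MIR122 stands apart from both clusters. The table has a row for miR-194a-5p, and how reads that fit several near-identical miRNAs were assigned is not given in the sources used here.

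Values are normalized read counts, which are reads divided by 1 factor per library, so that the reads behind each value could be recovered. Library totals ran from 264407 reads (plate, donor 2) to 3253003 reads (plate, donor 4). The values of the 17 rows on the list of stromal miRNAs summed to between 396362 and 700495 normalized counts per library and were high in all 12. These are bulk vesicle samples, in which fewer vesicles of a kind and less of a miRNA per vesicle cannot be told apart.

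The liver miRNA had the most reads of the 4 in every plate and microcarrier library, while over the 4 perfusion libraries miR-192 had 77 reads and miR-122-5p 70. The 4 together were a small part of every profile. They held 0.0179% to 0.116% of the reads on plates, 0.00259% to 0.00522% in perfusion and 0.0216% to 0.211% on microcarriers. miR-122-5p made up 65.2% to 95.4% of their reads on plates, 26.3% to 60.0% in perfusion and 64.6% to 81.1% on microcarriers. Ranked by group mean among the 252 miRNAs, miR-122-5p stood at position 81 on plates, 196 in perfusion and 69 on microcarriers. miR-192 stood at 158, 201 and 116, miR-194a-5p at 210, 246 and 180, and miR-215 at 213, 229 and 211 in the same order. All 4 thus had their lowest rank in perfusion.

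**Figure D1:**
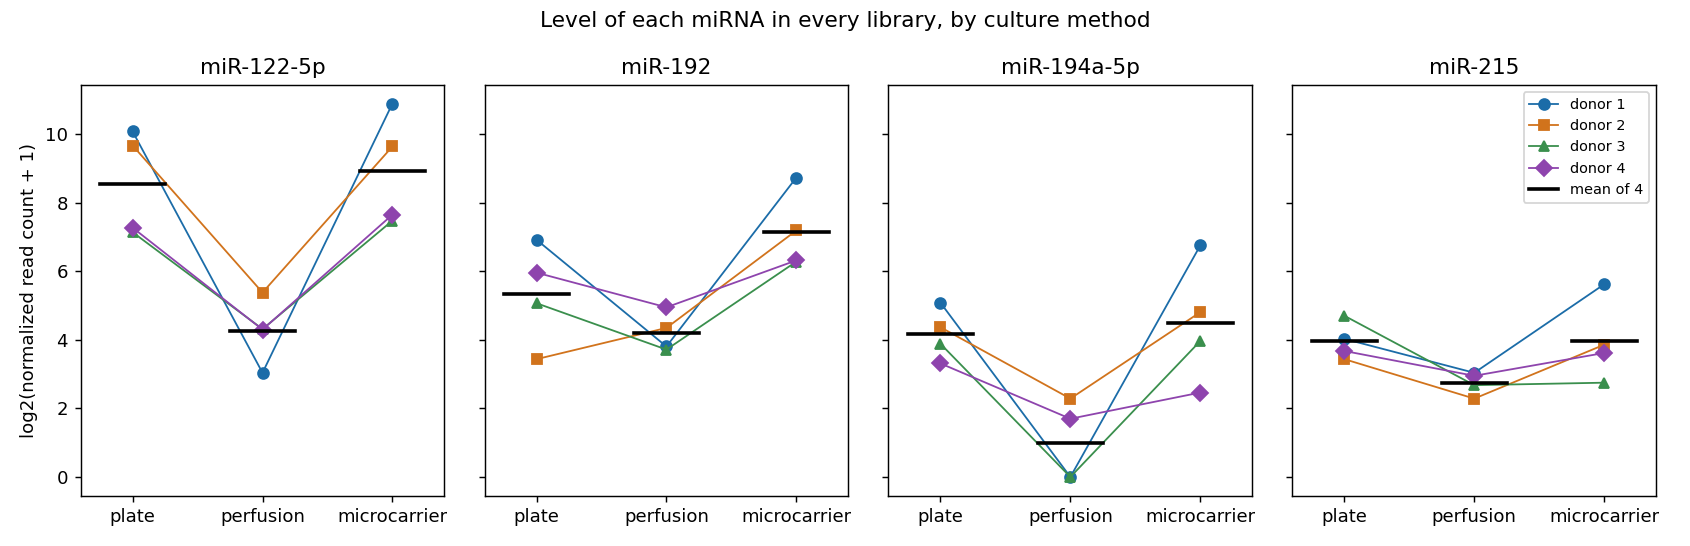
Level of each miRNA as log2(normalized read count + 1) in all 12 libraries, by culture method; symbols and lines mark the 4 donors and black bars the mean of 4 libraries. The perfusion libraries of miR-122-5p and miR-194a-5p lie below all plate and microcarrier libraries, while miR-192 in plate donor 2 and miR-215 in microcarrier donor 3 sit among or beside the perfusion values.

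On plates ssc-miR-122-5p, the hepatocyte miRNA, gave 1088, 817.8, 140.7 and 154.3 normalized counts in donors 1 to 4. On microcarriers the same donors gave 1911, 802.2, 178.0 and 201.2 normalized counts. In perfusion they gave 7.24, 40.8, 18.9 and 18.7. Every perfusion library was below every plate and microcarrier library, and donors 1 and 2 were higher than donors 3 and 4 in both of the other cultures.

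miR-122-5p was lower in perfusion than on plates by a log2 fold change of -4.29 ± 0.84 (SE, n = 4 per group), which is 19.5-fold on the log2(value + 1) scale. It passed an adjusted p of 0.05 in limma, a linear model fitted over all 252 miRNAs and the 12 libraries (adjusted p = 0.00511). As plain ratios of normalized counts, the fall within donors was 150.3-fold in donor 1, 20.05-fold in donor 2, 7.43-fold in donor 3 and 8.23-fold in donor 4. The perfusion value of donor 1 rests on 10 reads (exact 95% Poisson interval 3.47 to 13.3 normalized counts). Against microcarriers the log2 fold change was -4.66 ± 0.84 (limma adjusted p = 0.00203), and miR-122-5p was lower in perfusion in all 4 donors. In both comparisons miR-122-5p had the fifth lowest log2 fold change of the 252. Leaving out any single library kept both calls, at -4.75 to -3.77 against plates and -5.14 to -4.00 against microcarriers.

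Microcarriers and plates did not differ in miR-122-5p beyond its error, with a log2 fold change of 0.38 ± 0.84 (95% interval -1.42 to 2.18, limma adjusted p = 0.838). That fit held no donor term, and with donor as a block the error was 0.66 (limma adjusted p = 0.744). Without the block its sign turned without plate donor 3 (-0.09), plate donor 4 (-0.05) or microcarrier donor 1 (-0.28). Leaving out a single library also unbalances the donors, so these turns partly reflect the spread between donors. Donors differed more than these cultures did. The log2 levels spanned 2.94 between donors on plates and 3.42 on microcarriers, while microcarriers minus plates within a donor ran from -0.03 to 0.81. In perfusion the order of the donors was another: donor 1 was the lowest and donor 2 the highest.

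A fit with culture and donor did not call donor for miR-122-5p (limma F test, adjusted p = 0.206), beside 21 of 252 miRNAs called, or 8.33%. Without perfusion donor 1 its adjusted p was 0.00636, beside 38 of 252 called. That library is the one that broke the order, so the fit without it is no separate test of donor. In the 11 other runs with a library left out, donor was not called for miR-122-5p. Limma-voom on recovered reads weights each value by the precision expected at its count. There the adjusted p for donor of miR-122-5p was 0.0237, beside 33 of 252 called. None of the other 3 members had an adjusted p for donor under 0.05 in any of these fits.

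ssc-miR-194a-5p, transcribed with miR-192 in an epithelial cluster, stood at 33.0, 19.7, 13.8 and 8.96 normalized counts on plates in donors 1 to 4. On microcarriers it stood at 107.3, 27.1, 14.7 and 4.52. In perfusion it was listed at 0 in donors 1 and 3 and stood at 3.88 and 2.25 in donors 2 and 4. These perfusion values are 0, 2, 0 and 3 reads, and in the libraries at 0 a floor of 3 reads corresponds to 2.17 and 4.06 normalized counts. No library listed a value of 1 read, so a listed 0 may stand for 0 or 1 read. All 4 perfusion libraries were below all plate and microcarrier libraries, although microcarrier donor 4, at 2 reads, was only just above them.

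The fitted fall of miR-194a-5p from plates to perfusion was -3.17 ± 0.85 on the log2 scale (limma adjusted p = 0.0192), and from microcarriers to perfusion -3.50 ± 0.85 (adjusted p = 0.0133). It was lower in perfusion in 4 of 4 donors in both. The 4 plate libraries held 91 reads together and the 4 perfusion libraries 5, a ratio of 13.01 after scaling (95% exact interval 5.38 to 41.0, counting error only). That ratio and its interval take each value listed at 0 as 0 reads. The call against plates was lost without plate donor 1 (adjusted p = 0.0529), perfusion donor 1 (0.0593) or perfusion donor 3 (0.0599), with a pseudocount of 10 (log2 fold change -1.27, adjusted p = 0.0981) and in limma-voom (-3.59, adjusted p = 0.0654). With a pseudocount of 0.1 it held at -4.94 (adjusted p = 0.0218). The call against microcarriers held in every alternative run, at log2 fold changes from -5.26 to -1.63. Microcarriers and plates differed by 0.34 ± 0.85 (adjusted p = 0.851), and by -0.42 without microcarrier donor 1.

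ssc-miR-192, the cluster partner of miR-194a, stood at 120.6, 9.85, 32.7 and 61.5 normalized counts on plates. On microcarriers it stood at 427.2, 145.8, 77.2 and 79.1, and in perfusion at 13.02, 19.4, 12.2 and 30.0, in donors 1 to 4. The perfusion libraries were all below the microcarrier libraries. They overlapped the plates, because plate donor 2 was the lowest of the 12 libraries. That library, the shallowest of the series, held 2 reads of miR-192, and the exact 95% Poisson interval of that count is 1.19 to 35.6 normalized counts.

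miR-192 fell from microcarriers to perfusion by 2.93 ± 0.70 on the log2 scale (limma adjusted p = 0.0125), with donors from -4.93 to -1.37. The call held in every alternative run. Against plates the log2 fold change was -1.14 ± 0.70 (95% interval -2.64 to 0.35, adjusted p = 0.283), with 3 of 4 donors lower in perfusion. Without plate donor 1 it was -0.62 (adjusted p = 0.542) and without plate donor 2 -1.78 (adjusted p = 0.0698). With donor as a block and all 12 libraries its limma adjusted p was 0.191. It passed, at -1.81 (adjusted p = 0.0318), only with the block and without plate donor 2, a run added after seeing the data. The fitted level on microcarriers was above that on plates by 1.79 ± 0.70 and higher in 4 of 4 donors, but did not pass (adjusted p = 0.167). The size of that difference was 1.15 without plate donor 2. It is also the test of whether the falls against both other cultures differ, and it was not called.

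ssc-miR-215, whose seed is that of miR-192, stood at 15.4, 9.85, 25.1 and 11.8 normalized counts on plates in donors 1 to 4. On microcarriers it stood at 48.4, 13.5, 5.74 and 11.3, and in perfusion at 7.24, 3.88, 5.41 and 6.75. The perfusion libraries were below the plates without overlap but overlapped the microcarriers, where donor 3 was within the perfusion range. Reads ran from 2 to 10 per perfusion library.

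miR-215 was not called in any comparison. The log2 fold change from plates to perfusion was -1.22 ± 0.59 (95% interval -2.49 to 0.04, limma adjusted p = 0.173), with 4 of 4 donors lower. From microcarriers to perfusion it was -1.22 ± 0.59 (adjusted p = 0.186), also with 4 of 4 donors lower, and -0.67 without microcarrier donor 1. Microcarriers and plates were at 0.00 ± 0.59 (95% interval -1.26 to 1.26, adjusted p = 0.999), with donors split evenly and from -1.95 to 1.59. The fitted falls of miR-215 in perfusion were about as large as that of miR-192 against plates (-1.14). With donor as a block their 95% intervals were -2.44 to -0.005 against plates and -2.44 to -0.006 against microcarriers. Neither passed there (limma adjusted p = 0.138 and 0.139). These results do not show that miR-215 stayed level.

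**Figure D2:**
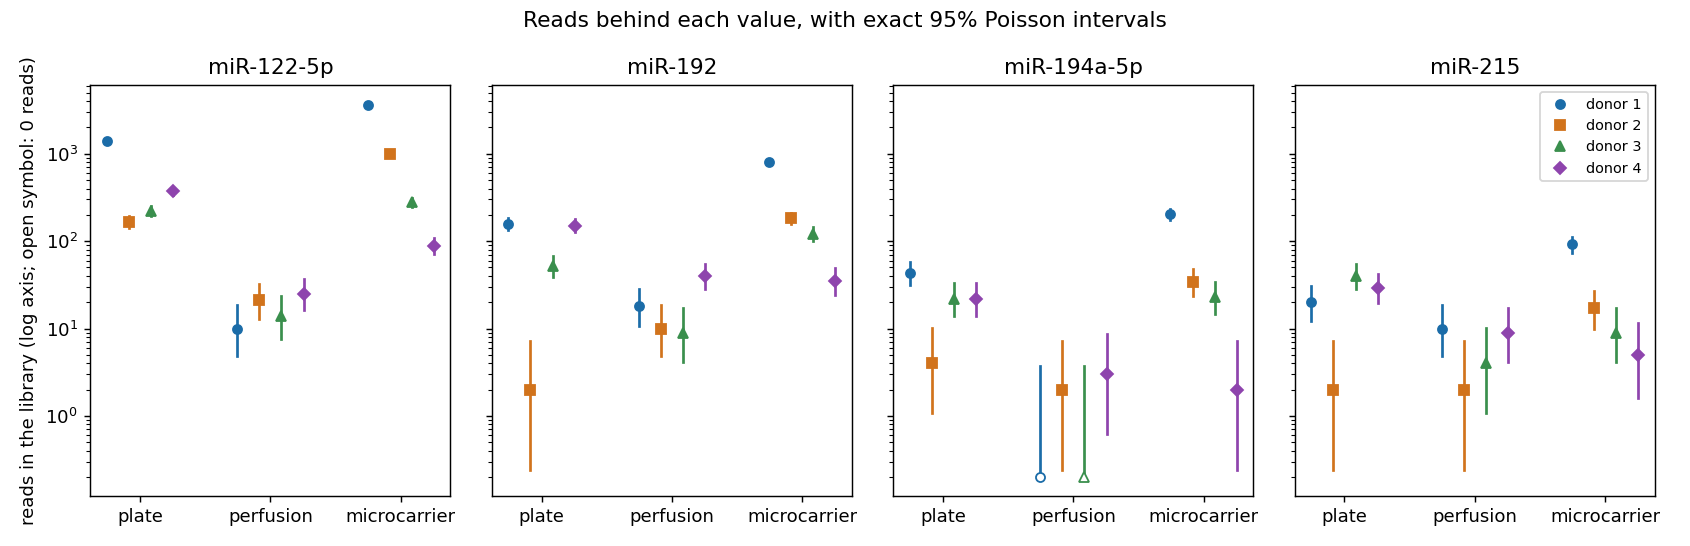
Reads of each miRNA in all 12 libraries on a log axis, with exact 95% Poisson intervals that cover counting error only; open symbols mark 0 reads and are drawn at the lower edge. Wide intervals go with counts of 0 to 3 reads, which are the perfusion counts of miR-194a-5p, its count in microcarrier donor 4, the plate donor 2 counts of miR-192 and miR-215, and miR-215 in perfusion donor 2, while those of miR-122-5p outside perfusion (89 to 3632 reads) are narrow.

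Of the 4 members, 2 passed as lower in perfusion than on plates, where 10.3% of all 252 miRNAs were called lower and 20.6% in either direction. Against microcarriers 3 of 4 passed as lower, where 9.92% were called lower and 15.5% in either direction. None passed between microcarriers and plates, where 2.38% were called in limma (6 of 252). With donor as a block these counts of all calls rose to 64 of 252 between perfusion and plates and to 23 between microcarriers and plates (9.13%). Between perfusion and microcarriers they rose to 59 (23.4%), and no member's call changed. Groups that did not overlap, with perfusion lower, were found for 3 of 4 members against plates, beside 10.7% of all miRNAs, and for 3 of 4 against microcarriers, beside 13.1%. The members' median log2 fold change was -2.20 against plates and -3.22 against microcarriers, with -0.06 and -0.07 for all 252. These comparisons share the perfusion libraries, and those against plates share the plate libraries, so they are not independent.

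**Figure D3:**
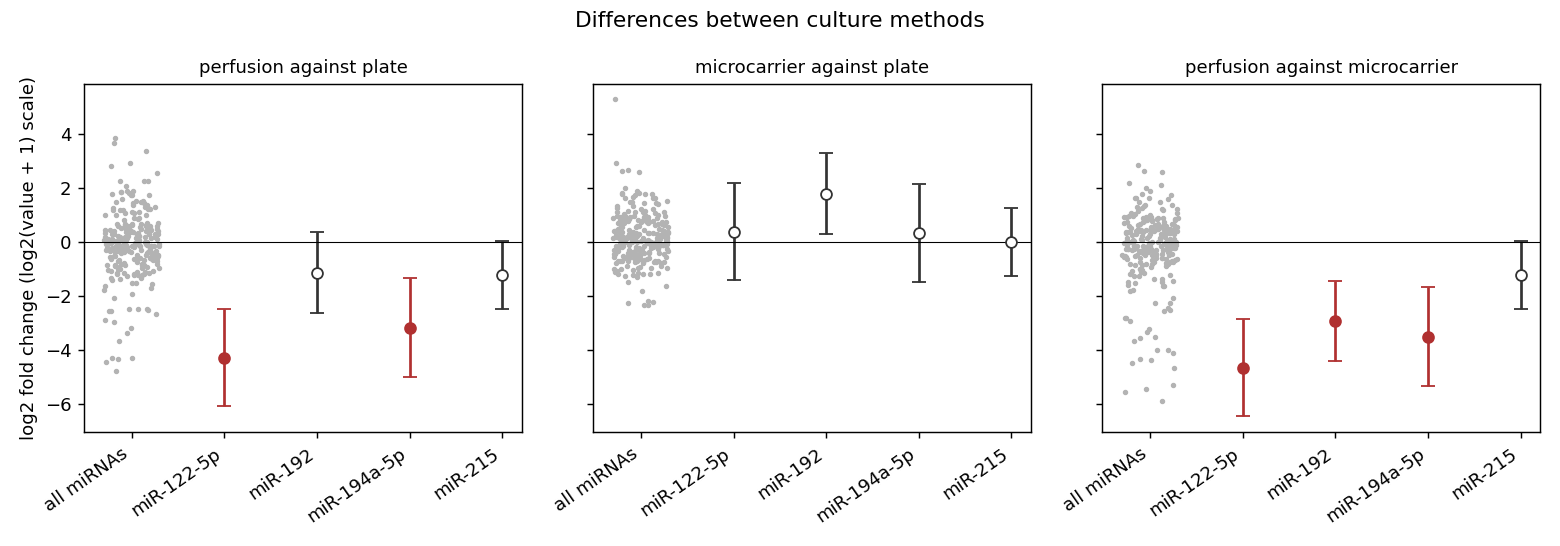
Log2 fold changes on the log2(value + 1) scale for the 3 comparisons, with 95% intervals from limma; filled symbols passed an adjusted p of 0.05, and grey points are all 252 miRNAs. The filled symbols are miR-122-5p and miR-194a-5p against plates, joined by miR-192 against microcarriers, and no symbol is filled between microcarriers and plates.

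The members did not keep a fixed ratio to each other. The reads of miR-122-5p over those of miR-192 were 9.02, 83.0, 4.31 and 2.51 on plates in donors 1 to 4. They were 4.47, 5.50, 2.31 and 2.54 on microcarriers and 0.556, 2.10, 1.56 and 0.625 in perfusion, below every plate and microcarrier library. Plate donor 2, at 83.0, rests on 2 reads of miR-192. A ratio of reads is not one of molecules, since adapters ligate to each miRNA with its own efficiency, but the same pair can be followed across libraries.

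The near-identical pair miR-192 and miR-215 had a ratio of 7.85, 1.00, 1.30 and 5.21 on plates, 1.80, 5.00, 2.25 and 4.44 in perfusion and 8.83, 10.8, 13.4 and 7.00 on microcarriers. It was not constant, and the microcarrier libraries were above the perfusion libraries. Several of these ratios rest on 2 to 5 reads of miR-215, and whether the rows share part of their reads was not tested. Within the cluster of miR-192 and miR-194a-5p the ratio ran from 0.500 to 6.86 on plates and from 3.98 to 17.5 on microcarriers. The highest microcarrier value rests on 2 reads of miR-194a-5p, and the lowest plate value, in donor 2, on 2 reads of miR-192 and 4 of miR-194a-5p. In perfusion the ratio was 5.00 in donor 2 and 13.3 in donor 4, on 2 and 3 reads of miR-194a-5p. It could not be formed in donors 1 and 3, where miR-194a-5p was listed at 0.

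Donor 1 gave the highest microcarrier level of all 4 members and the highest plate level of 3, the exception being miR-215. In perfusion donor 1 was lowest for miR-122-5p and at 0, with donor 3, for miR-194a-5p, but highest for miR-215 (7.24 normalized counts). Spread within a culture was wide for miR-122-5p: its log2 values had an SD of 1.55 on plates, 0.96 in perfusion libraries and 1.64 on microcarriers, against medians over all miRNAs of 0.67, 0.42 and 0.56. The widest spread on microcarriers was that of miR-194a-5p (1.79), the 11th largest of the 252.

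The profiles most like each member were found by the SD of the log2 ratio of both levels over the 12 libraries, where 0 is a fixed ratio. For miR-122-5p these were miR-486 (0.60), an erythroid miRNA, miR-142-5p (0.61), a miRNA of white blood cells, the endothelial miR-126-3p (0.91) and miR-194a-5p (0.93). The median over all other miRNAs was 2.63, and miR-122-5p itself had an SD of 2.55. For miR-194a-5p they were miR-432-5p (0.68), miR-493-3p (0.81), miR-126-3p (0.82) and miR-122-5p (0.93), beside a median of 2.13. Its cluster partner miR-192 came at position 16 (1.34).

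miR-192 was most like miR-139-5p (0.85), miR-1839-5p (0.94), miR-452 (0.98) and miR-342 (1.01), beside a median of 1.76. Of these miR-452 was low, at a mean of 7.67 normalized counts on plates, 0 in perfusion and 15.2 on microcarriers. Its perfusion levels were thus at the floor of the scale. miR-215 was most like miR-1839-5p (0.62), miR-95 (0.63), miR-185 (0.69) and miR-103 (0.70), beside a median of 1.18. Neither miR-192 nor miR-215 had another member among its 4 nearest. All such values share the libraries, their depth and their scaling, and describe likeness over 12 libraries only.

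Markers of blood and endothelial cells were lower in perfusion, as miR-122-5p and miR-194a-5p were. With all 12 libraries, miR-192 was called lower only against microcarriers, and miR-215 in neither comparison. All 3 erythroid rows (miR-144, miR-451 and miR-486), all 4 white blood cell rows (miR-142-5p, miR-142-3p, miR-150 and miR-223) and both arms of miR-126 were called lower in perfusion than in either other culture. The erythroid rows summed to 568.3 to 2528 normalized counts on plates, to 28.9 to 334.1 in perfusion and to 2074 to 6742 on microcarriers. The white blood cell sum was 130.7 to 700.5, 9.75 to 50.5 and 273.5 to 2110 in the same order, with miR-223 at 0 in all 4 perfusion libraries. The endothelial sum was 582.9 to 2184, 118.7 to 190.8 and 944.8 to 6092.

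On plates donors 1 and 2 were above donors 3 and 4 in these lists, as they were for miR-122-5p and miR-194a-5p. miR-192 and miR-215 did not share that order, with donor 2 lowest for both and donor 3 highest for miR-215. The sum of the 4 members was 1257, 857.3, 212.3 and 236.5 normalized counts on plates in donors 1 to 4, mostly miR-122-5p. The white blood cell sums there were 700.5, 487.7, 140.1 and 130.7, and the endothelial sums 2184, 1572, 582.9 and 709.6. Donor 1 led all of these lists on microcarriers too. Whether these cells or the serum in the medium contributed to the members' levels was not tested.

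**Figure D4:**
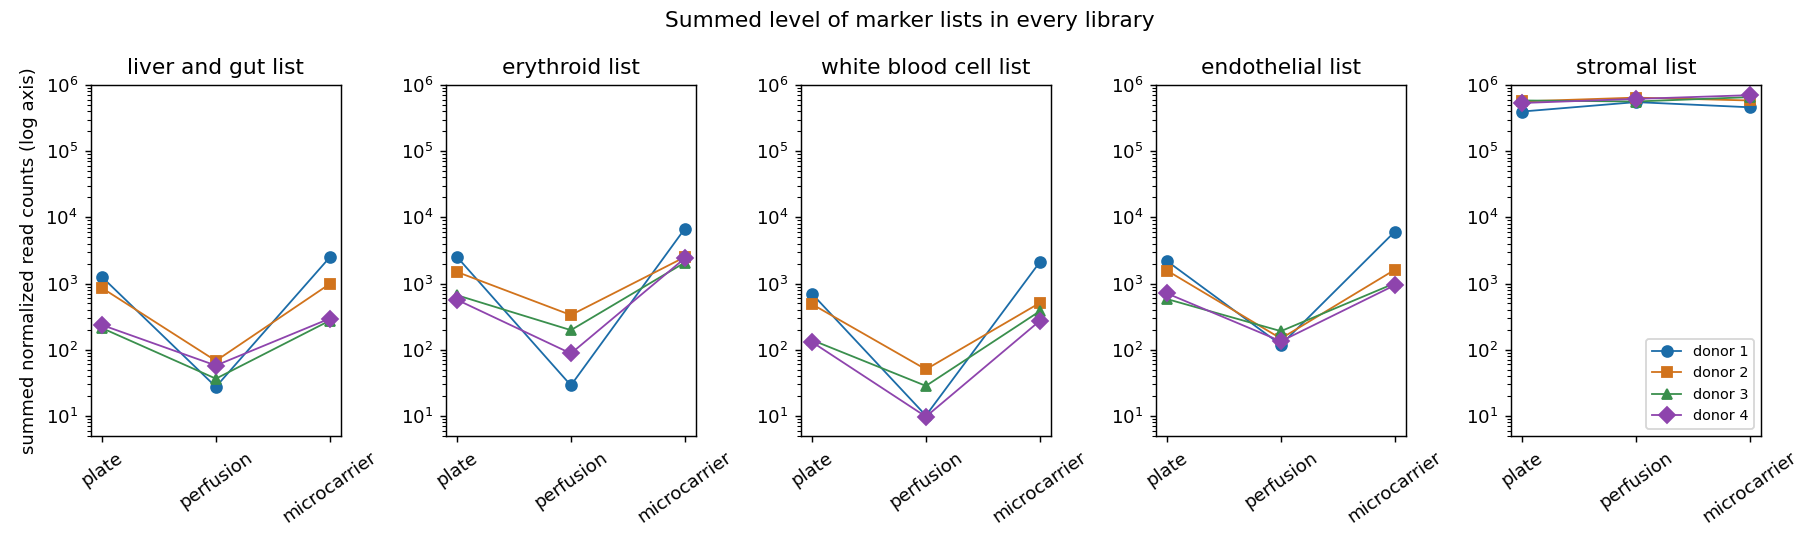
Summed normalized read counts of the liver and gut members and of 4 marker lists in all 12 libraries, on a common log axis, by culture method and donor. The liver and gut, erythroid, white blood cell and endothelial sums are all lowest in perfusion, while the stromal sum lies between 396362 and 700495 in every library.

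The remaining lists moved less or in other directions. Of 17 stromal rows none was called between perfusion and plates, and between perfusion and microcarriers 2 were higher and 1 lower in perfusion. The list of miRNAs abundant in serum held 5 rows (miR-16, miR-92a, miR-191 and both arms of miR-423). Of these 1 was higher in perfusion against plates, miR-92a (0.87 ± 0.26), and 1 against microcarriers, miR-423-3p (1.06 ± 0.28). The list leaves out the members and the blood cell rows, so it does not show how serum miRNAs moved as a whole. Of 3 muscle rows 2 were lower in perfusion than on plates, miR-1 (-1.71 ± 0.56) and miR-499-5p (-1.14 ± 0.31), and none against microcarriers, where miR-133a-3p was higher. Of 7 neural rows 1 was higher against plates, miR-129a-3p (2.93 ± 0.72), and none against microcarriers. The neural rows miR-9, miR-9-1 and miR-9-2 gave identical donor fits, so the 7 rows hold fewer separate measurements. Between microcarriers and plates none of the rows on any of these lists was called. A list of 10 epithelial miRNA names matched 0 rows and was not analysed here.

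On the list of p53-induced miRNAs, miR-145-5p was the only row outside the members to be called. Of 8 rows on that list, known from human cells and holding miR-192, miR-194a-5p and miR-215 themselves, 1 was lower in perfusion than on plates, miR-194a-5p. Against microcarriers 2 were lower, miR-192 and miR-194a-5p, and 1 higher, miR-145-5p (1.59 ± 0.41). The remaining rows, miR-16, miR-34c, miR-107 and miR-145-3p, were called in none of the 3 comparisons. The median log2 fold change of the list, members included, was -0.67 for perfusion against plates, with -0.06 for all miRNAs. Against microcarriers it was -0.47, with -0.07 for all. Whether p53 contributed was not tested.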

How the data were processed

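Small RNA libraries were made with a NEBNext kit from vesicle RNA, per the labels' protocols, and Bowtie is the aligner named in the submitters' processing notes. The build, the annotation and the way reads were counted are not stated there. The authors deposited a signal per mature miRNA, called a normalized read count in the file header. Each of the 12 columns carries a library number that the labels tie to a sample. Values of a library were integer multiples of a single step (tolerance 0.001 reads), and this step was the inverse of its median-of-ratios size factor, so reads were recovered. The smallest value above 0 stood for 2 reads in 11 libraries and for 5 in plate donor 4, so a listed 0 need not mean that no read was found.

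Differences were fitted with limma 3.58.1 in R 4.3.3 (trend) on log2(value + 1), with a minimum of 1 in 4 or more libraries that all 252 rows met, with culture method as the factor, all 12 libraries in 1 fit and Benjamini-Hochberg adjustment over 252. The log2(value + 1) scale understates changes of low miRNAs. Donor was tested by an F test in a fit of culture and donor. Same-numbered samples come from the same animal, so donors pair the libraries; after subtraction of group means, libraries of a donor correlated at 0.02 to 0.67. The fit was tested on simulated counts without donor differences, where only miRNAs above a minimum mean count were changed. That test does not show how the fit performs with the donor spread of the members. Python 3.11.15 with NumPy 2.4.6, pandas 2.3.3, SciPy 1.17.1 and matplotlib 3.10.9 was used.

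The members, lists and tests were chosen with earlier results of these data known. Named besides the members were the 4 profiles most like each and, for each list, its counts of calls and up to 2 rows with the smallest p; other listed rows are named to say what a list holds. The alternatives were donor as a block, other pseudocounts and filters, library totals, fits of 2 groups and each library left out. Limma-voom and the block without plate donor 2 were added after seeing the data. Intervals and floors cover counting error only.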

Additional observations from a re-analysis of the deposited data

How the results depend on the processing

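The falls of miR-122-5p in perfusion against both other cultures, and those of miR-192 and miR-194a-5p against microcarriers, were called under every alternative run. With donor as a replicate block no member's call changed. All calls rose to 64 between perfusion and plates, to 23 between microcarriers and plates and to 59 between perfusion and microcarriers. Without plate donor 2, in a run added after seeing the data, that block called 70 between perfusion and microcarriers. It put miR-215 at -0.081 between microcarriers and plates. The same run called miR-192 lower in perfusion than on plates (-1.81). A pseudocount of 0.1 put miR-215 between microcarriers and plates at -0.017 and library totals at -0.066, around a value near 0. A pseudocount of 10 took the fall of miR-194a-5p against plates to -1.27, which was not called, and one of 0.1 took it to -4.94, which was. Limma-voom gave -3.59 for it, also not called, 33 donor calls, and an adjusted p for donor of 0.0237 for miR-122-5p. A fit of only 2 groups gave 3 calls between microcarriers and plates. The other filters moved no member across the threshold. The causes were not tested.

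With each library left out, miR-194a-5p in perfusion against plates ran from -3.60 to -2.84 and miR-192 from -1.78 to -0.62, not called in any. Between microcarriers and plates miR-122-5p ran from -0.28 to 0.89, miR-194a-5p from -0.42 to 1.01 and miR-215 from -0.55 to 0.41. These fits of culture held no donor term, so leaving out a library also unbalanced the donors. The adjusted p for donor of miR-122-5p (limma F test) ran from 0.00636, without perfusion donor 1 and the only call, to 0.433. All calls ran from 29 (without perfusion donor 1) to 55 for perfusion against plates, from 3 (without plate donor 3 or 4) to 12 (without plate donor 1) for microcarriers against plates, from 22 (without perfusion donor 4) to 49 for perfusion against microcarriers, and from 10 (without microcarrier donor 3) to 38 (without perfusion donor 1) for donor. Perfusion against plates gave 30 without perfusion donor 3. Perfusion against microcarriers gave 24 and 25 without perfusion donors 1 and 3. Donor gave 13 without perfusion donor 3. The foreseen count test in edgeR was not run, and limma-voom on recovered reads stood in for it. Depth limits miR-194a-5p and miR-215 most, at 0 to 10 reads per perfusion library.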
